A study of Mus musculus with 16 samples.

Results

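The average difference that exercise made to tumour RNA was measured as the 8 libraries with exercise against the 8 without, with the antibody (yes or no) as a covariate. The libraries with exercise were exercise 1 to 4, without antibody, and combination 1 to 4, in which exercise was joined with anti-PD-L1. Those without exercise were control 1 to 4 and anti-PD-L1 1 to 4, so all 16 libraries and all 4 groups of the series entered. All tumours were subcutaneous grafts of MC38, an established line from a mouse colon carcinoma. PD-1 blockade is the term in the title of the series, but the samples are labelled anti-PDL1, and the antibody is called anti-PD-L1 after those labels. The sources used here do not give mouse strain, sex, age, exercise regimen or antibody dose. They do not say either that replicates are different mice, so the spread behind each p-value may be technical.

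Exercise reaches a tumour from outside, through blood flow, oxygen and fuel supply, through hormones such as catecholamines and glucocorticoids, and through factors that working muscle releases. PD-L1 on tumour and myeloid cells restrains T cells, and antibodies to it lift that restraint. In whole tumour tissue the RNA of cancer cells, vessels, fibroblasts and immune cells is measured together, and fewer cells of a type cannot be told apart from less RNA per cell.

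Levels are in FPKM, in which the fragments of a gene are divided by its length and by the size of the library. Of 18480 entries, 11868 reached 1 FPKM in at least 4 libraries and were tested. Differences are on the log2(FPKM + 1) scale, which understates the change of genes of low level, and are written as with exercise minus without, ± SE. Higher and lower give the sign of a difference and not a call, since no gene passed in these fits.

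Some libraries stood apart. The first principal component held 30.1% of the variance, with controls 1 and 2 at -30.8 and -41.4 and the other 14 libraries between -17 and 26.3. These controls also had the highest summed levels of macrophage markers (1919 and 2649 FPKM against at most 1715 elsewhere) and endothelial markers (153.9 and 300.3 FPKM against at most 116.6). Control 2 carried skeletal muscle transcripts (441.2 FPKM against at most 19.38 in any other library), and anti-PD-L1 4 carried red blood cell transcripts (4072 FPKM against at most 792.4). The epithelial markers Epcam, Krt8 and Krt18 did not pass 0.2 FPKM in any library, so the carcinoma identity is not visible in those 3. Of 10 carcinoma epithelium markers in the files 4 were tested. Among these were Lgals4, Cdh1 and Muc1, at medians of 9.015, 1.97 and 1.24 FPKM over the 16 libraries.

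Tumours with and without exercise differed little on average. No gene passed an adjusted p of 0.05 in limma (0% of 11868, lowest adjusted p 0.659), while 847 genes had an unadjusted p under 0.05, 457 of them higher with exercise (3.85%) and 390 lower (3.29%). The median absolute difference was 0.08. The 95% interval of a gene's difference reached a median of 0.20 to each side, and for 11592 genes (97.7%) it lay wholly within 1 log2 unit of 0. For 10126 genes (85.3%) it lay within 0.5 log2 units. A difference of 1 log2 unit or more was measured for 21 genes, and of 0.5 or more for 171.

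The average joined differences that often pointed in opposite directions. Without antibody (exercise against control), 953 genes were higher with an unadjusted p under 0.05 (8.03%) and 1178 lower (9.93%). With antibody (combination against anti-PD-L1), 267 were higher (2.25%) and 201 lower (1.69%). No gene passed adjustment in either comparison (limma, lowest adjusted p 0.181 and 0.968). The comparisons share no library, and across the 11868 genes their differences had a Pearson r of -0.15 and a Spearman correlation of -0.208, with the same sign for 41.7% of genes. Genes are not independent replicates, so this is a description. Leaving out each library in turn moved r between -0.279 (without combination 1) and 0.0165 (without combination 3), and without controls 1 and 2 it was -0.0565.

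**Figure D1:**
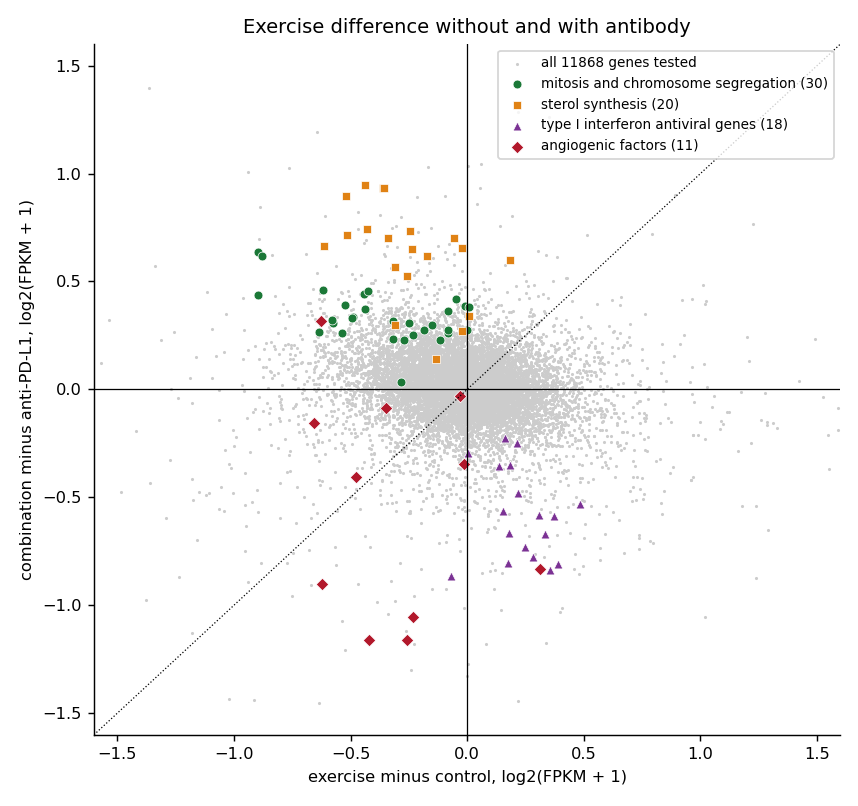
Exercise difference of each gene without antibody (horizontal, exercise minus control) and with it (vertical, combination minus anti-PD-L1), in log2(FPKM + 1), with 24 genes outside the axes. Mitosis and sterol genes lie mostly at the upper left, type I interferon genes at the lower right and angiogenic factors mostly at the lower left.

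Few genes were apart at both antibody levels. The 4 exercise libraries did not overlap the 4 controls for 916 genes (7.72%), and the 4 combination libraries did not overlap the 4 anti-PD-L1 libraries for 266 (2.24%). Only Ccdc9 and Stt3b, 2 genes (0.0169%), were apart at both levels in the same direction, and Ddx6, Letm2 and Shank3, 3 genes, were apart at both in opposite directions. With 4 libraries a group, some of 11868 genes are apart by chance, and these counts were not tested against that. Ccdc9, a coiled-coil protein gene (GRCm38.p6 chromosome 7, 16272013 to 16286807), was at 18.42, 18.38, 16.76 and 16.77 FPKM in controls 1 to 4 and at 19.57, 19.35, 19.93 and 24.45 in exercise 1 to 4. It was at 16.69, 17.88, 16.38 and 19.29 FPKM in anti-PD-L1 1 to 4 and at 20.68, 20.13, 20.96 and 20 in combination 1 to 4. Ccdc9 was the only gene whose 8 libraries with exercise all lay above all 8 without. The step was small, 0.22 ± 0.06 (95% interval 0.10 to 0.34, limma adjusted p 0.659).

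Stt3b encodes a catalytic subunit of the oligosaccharyltransferase, which attaches N-glycans to proteins in the endoplasmic reticulum (chromosome 9, 115242470 to 115310468). It was at 30.31, 31.72, 27.51 and 29.8 FPKM in controls and at 25.66, 25.95, 26.17 and 24.48 with exercise. It was at 30.6, 28.43, 28.92 and 31.24 FPKM in anti-PD-L1 and at 27.12, 27.56, 27.1 and 25.52 in the combination. Each exercised group lay wholly below its partner, though combination 2 (27.56) lay just above control 3 (27.51). The difference was -0.18 ± 0.05 (95% interval -0.28 to -0.08). Nus1, which is needed to make dolichol, the lipid that carries those glycans, was at 16.99 to 18.05 FPKM with exercise against 19.3 to 22.32 in controls. Under antibody Nus1 was at 17.12 to 20.87 against 18.92 to 24.59, which overlapped, and its difference was -0.23 ± 0.06.

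The 12 higher genes of smallest unadjusted p differed by 0.21 to 0.38 log2 units. Ptms, which encodes the acidic nuclear protein parathymosin (chromosome 6, 124913675 to 124917946), had the smallest p. It was at 415.36, 542.24, 525.26 and 467.73 FPKM in controls and at 591.58, 631.33, 628.52 and 658.7 with exercise. It was at 454.58, 361.71, 404 and 388.23 FPKM in anti-PD-L1 and at 549.82, 494.79, 433.5 and 491.64 in the combination. Exercise and control did not overlap, combination 3 fell inside the anti-PD-L1 range, and the difference was 0.33 ± 0.07 (95% interval 0.18 to 0.48). Ctxn1, a cortexin gene, was at 0.38 ± 0.09, with 48.03 to 58.48 FPKM in exercise against 38.6 to 45.2 in controls, and 24.8 to 35.6 in the combination against 18.58 to 24.91 in anti-PD-L1. Rtkn, which encodes rhotekin, was at 0.30 ± 0.07. Hist2h2be, a histone H2B gene whose reads can be shared with near-identical copies, was at 0.38 ± 0.10. Maml3, a Notch coactivator, was at 0.46 ± 0.11 without antibody and 0.17 ± 0.11 with it, and Med16, a Mediator subunit, at 0.28 ± 0.09 and 0.19 ± 0.09. The others were Gm40595 (0.37), Gm41844 (0.31), Ccdc61 (0.23), the dynein-2 chain gene Wdr34 (0.22) and Pnkd (0.21).

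Of the 12 lower genes of smallest p, Clec4d had one of the wider differences. Clec4d, a C-type lectin receptor of myeloid cells, was at 12.61, 14.46, 3.47 and 5.35 FPKM in controls and at 1.37, 3.04, 3.56 and 3.44 with exercise. It was at 7.35, 8.21, 8.01 and 13.24 FPKM in anti-PD-L1 and at 7.59, 4.62, 3.36 and 3.21 in the combination. The groups overlapped at both levels, through control 3 and combination 1, and the difference was -1.05 ± 0.25 (95% interval -1.59 to -0.52). Slc1a4, a transporter of neutral amino acids, was at 13.47, 17.53, 18.33 and 14.43 FPKM in controls and at 9.22, 9.5, 11.88 and 7.61 with exercise, which did not overlap. Under antibody Slc1a4 was at 18.17, 16.12, 16.46 and 14.85 FPKM without exercise and at 12.85, 17.25, 14.52 and 10.44 with it, which did. Its average difference was -0.47 ± 0.11. Adgrl4, an adhesion receptor of endothelial cells, was at -0.56 ± 0.14, and Adam8, a metalloprotease of leukocytes, at -0.70 ± 0.18. Nfil3, a transcriptional repressor linked to the clock, was at -0.40 ± 0.10, and H2-T-ps, an MHC pseudogene that can share reads with its relatives, at -0.50 ± 0.12. Katna1, Tgoln1 and Rnf145 were at -0.27, -0.25 and -0.23.

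**Figure D2:**
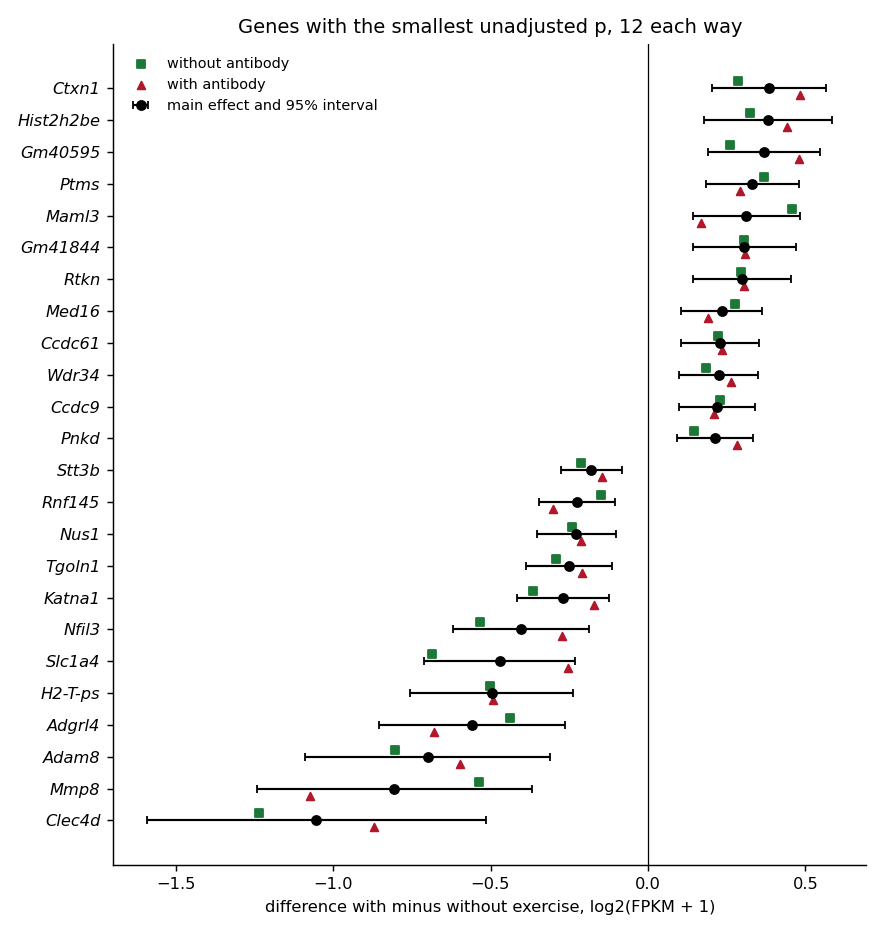
Average exercise difference (black, with 95% interval) and the difference at each antibody level for the 12 genes of smallest unadjusted p in each direction, in log2(FPKM + 1). The black intervals lie on 1 side of 0, which the choice by p brings about, and no gene passed the adjusted threshold.

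**Figure D3:**
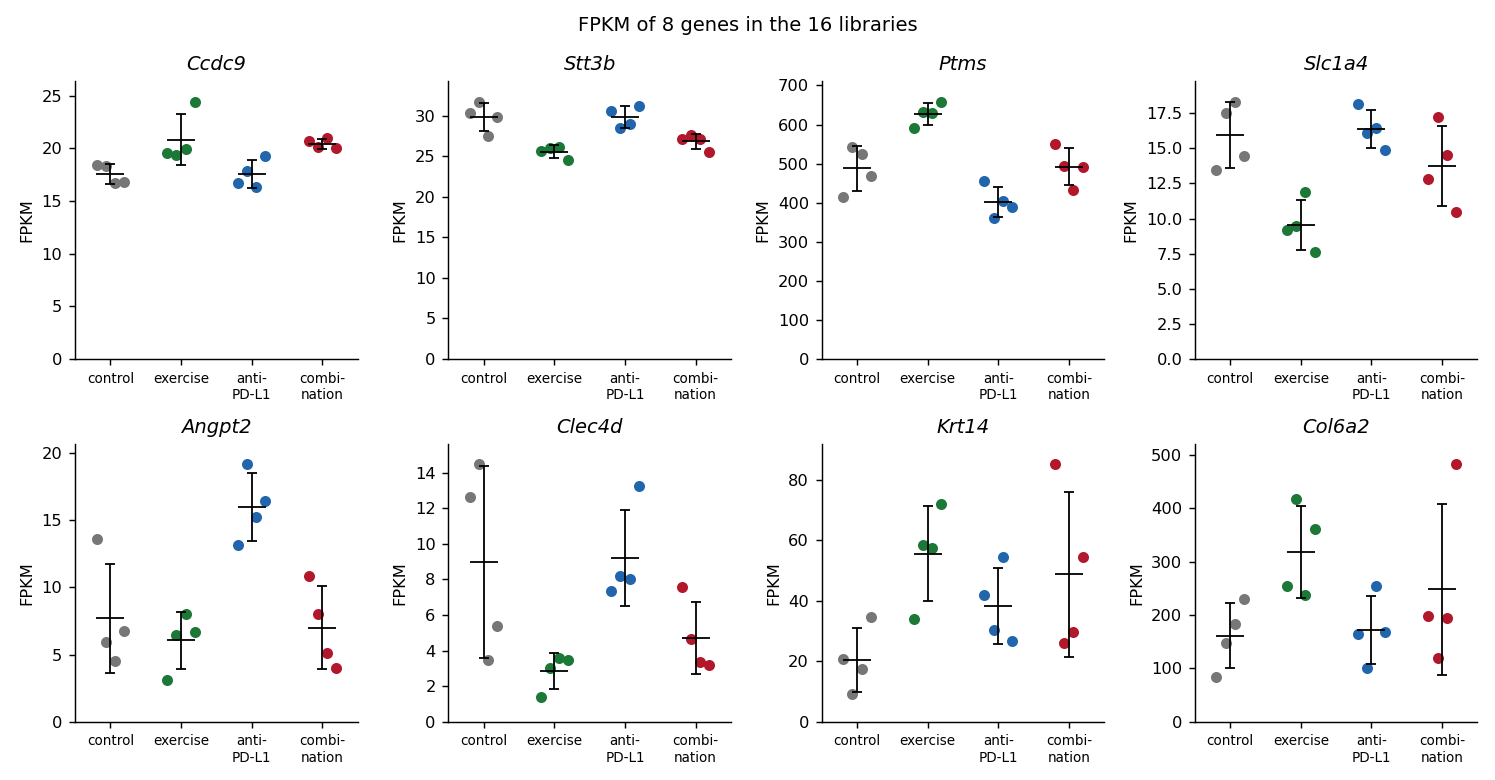
FPKM of 8 genes in the 4 libraries of each group, with mean and SD. Groups with exercise lie above their partners for Ccdc9 and below them for Stt3b at both antibody levels, while Angpt2 is apart only under antibody and Col6a2 only without it.

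Angiogenic factors, the secreted signals that call and shape vessels, were lower with exercise as a group. All 11 tested of 14 listed had a difference below 0 (median -0.41), where 49.2% of all genes tested lay above 0 and their median was -0.00178. Their medians were -0.35 without antibody and -0.40 with it, against -0.02 and 0.02 over all genes. Of the 11, 5 had an unadjusted p under 0.05, where 3.29% of all genes did in that direction. They were Angpt2, which loosens vessels for sprouting, Pgf, a relative of VEGF, Pdgfb, which recruits pericytes, and the peptide genes Apln and Adm. Their differences were -0.71 ± 0.25, -0.79 ± 0.32, -0.44 ± 0.16, -0.64 ± 0.27 and -0.76 ± 0.34.

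Angpt2 was at 13.59, 5.91, 4.5 and 6.79 FPKM in controls and at 3.07, 6.46, 8.02 and 6.69 with exercise, which overlapped. It was at 13.13, 19.16, 15.27 and 16.42 FPKM in anti-PD-L1 and at 10.88, 7.99, 5.08 and 4 in the combination, which did not. Its difference was -0.26 ± 0.32 without antibody and -1.16 ± 0.32 with it, and the gap between the levels had an unadjusted p of 0.0642. Pgf was at 2.21 to 5.26 FPKM in the combination against 6.44 to 13.2 in anti-PD-L1, and Apln at 7.54 to 19.13 against 23.14 to 27.82. Under antibody 4 of the 11 were apart and lower, where 100 of all 11868 genes tested were, and without antibody none was. The median without antibody was -0.10 when exercise 1 was left out and -0.00148 when controls 1 and 2 were, while the average over both levels stayed between -0.47 and -0.29 when each library was left out in turn.

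Markers of vessel cells were mostly below 0, and their average medians had the other sign without controls 1 and 2. Of 14 endothelial markers tested 12 were below 0 (median -0.25), among them Emcn, a sialomucin of capillaries and veins, at -0.51 ± 0.22. Emcn was at 10.42 and 25.98 FPKM in controls 1 and 2 and at 4.05 to 7.37 in the other 14 libraries. Robo4, a guidance receptor of endothelium, was at -0.43 ± 0.19, and Cldn5, the tight junction claudin of endothelium, at 0.27 ± 0.12. Acta2, smooth muscle actin, was at 30.9 and 19.79 FPKM in the same controls and at 6.27 to 14.37 elsewhere (-0.59 ± 0.19). Under antibody, where no control enters, 10 of the 14 endothelial markers were below 0 (median -0.17, and -0.0443 without combination 2), and 4 of 8 pericyte and smooth muscle markers (median -0.00821). With controls 1 and 2 left out, the average endothelial median was 0.05 and that of the 8 pericyte and smooth muscle markers went from -0.25 to 0.08.

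Matrix genes pointed both ways, with 10 of 18 interstitial matrix genes above 0 (median 0.03). The collagen VI genes Col6a1, Col6a2 and Col6a3, whose chains form beaded filaments around cells, were at 0.59 ± 0.24, 0.72 ± 0.28 and 0.24 ± 0.11. Col6a2 was at 84.75, 146.68, 183.54 and 229.33 FPKM in controls and at 255.34, 417.62, 236.63 and 361.27 with exercise, with no overlap. Under antibody it was at 165.36, 99.85, 253.72 and 168.33 FPKM without exercise and at 197.58, 118.58, 194.83 and 482.5 with it, where combination 4 alone lay above the anti-PD-L1 libraries. Itga10, a collagen-binding integrin, was at 1.03 ± 0.21 without antibody and 0.01 ± 0.21 with it. Thbs1, thrombospondin 1, which restrains vessel growth and activates TGF-beta, was at -0.87 ± 0.26, with 5.76 to 16.21 FPKM in the combination against 18.18 to 28.76 in anti-PD-L1. Lox, the enzyme that cross-links collagen, was at -1.31 ± 0.46, with 46.28 and 48.42 FPKM in controls 1 and 2 and at most 12.34 elsewhere. Mfap5, a microfibril protein gene, was at -0.98 ± 0.38 and had the same 2 libraries on top, at 46.66 and 51.8 FPKM. Over 13 fibroblast markers the median was -0.28, but 0.08 without controls 1 and 2 and -0.0401 without combination 2.

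Neutrophil genes were lower in 7 of 8 tested of 14 listed (median -0.48). An unadjusted p was under 0.05 for 2 (3.29% over all genes lower), Clec4d and Mmp8, the neutrophil collagenase. Mmp8 was at 1.55, 0.65, 1.46 and 0.75 FPKM in controls and at 0.24, 0.22, 1.28 and 0.19 with exercise. It was at 2.93, 6.34, 4.55 and 3.16 FPKM in anti-PD-L1 and at 2.32, 2.09, 1.23 and 0.48 in the combination. Exercise 3 lay among the controls, the groups under antibody did not overlap, and the difference was -0.81 ± 0.21. The alarmin genes S100a8 and S100a9 were at -0.55 ± 0.41 and -0.64 ± 0.47. The defining markers Ly6g, Ngp and Camp were at 0 in 10, 12 and 15 of the 16 libraries and never above 0.13 FPKM. The whole list summed to 25.32 to 100.9 FPKM in controls, 22.65 to 62.47 in exercise, 25.64 to 54.84 in anti-PD-L1 and 20.09 to 37.74 in the combination. The part of neutrophil number in these differences was not tested, and the list's median was -0.21 without controls 1 and 2 and -0.29 without control 2. Without antibody the median was -0.30, but -0.0126 without control 2 and 0.25 without controls 1 and 2. With antibody it was -0.59, but -0.0561 over genes with a mean of at least 5 FPKM.

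Of 15 chemokines tested 7 were above 0 (median -0.07). The 3 lower with an unadjusted p under 0.05 (3.29% over all genes) were Cxcl12, a stromal attractant (-1.15 ± 0.46), Cxcl2, an attractant of neutrophils (-1.04 ± 0.46), and Ccl9 (-0.61 ± 0.26). Cxcl12 was at 1.36 to 1.76 FPKM in the combination against 3.37 to 7.08 in anti-PD-L1, and at 9.06 and 43.29 in controls 1 and 2 against 1.02 to 2.99 in the other libraries without antibody. The 16 macrophage markers had a median of 0.07, which was -0.12 without combination 4 and 0.49 without controls 1 and 2. Their median without antibody was -0.27, but 0.0455 without control 2 and 0.40 without controls 1 and 2, and that with antibody was 0.40, but 0.057 without combination 4. Only 3 of 15 T cell genes could be tested, 2 above 0 and 1 below (median 0.00408), and Cd8a, the coreceptor of killer T cells, was at 0.12 to 2.23 FPKM. The 1 below was Il7r, the interleukin 7 receptor, at -0.41 ± 0.18. Of 10 immune checkpoint genes 6 were below 0 (median -0.04), 2 with an unadjusted p under 0.05 (3.29% over all genes). Havcr2, which encodes TIM-3, was at -0.35 ± 0.12. Gzmb, the granzyme of killer cells, was at 0.12 ± 0.30.

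Genes of the unfolded protein response and of ATF4, which adjust protein folding and amino acid supply under stress, were lower in 18 of 19 (median -0.16), 4 with an unadjusted p under 0.05 (3.29% over all genes). The mean log2 level of the 19 was 5.67 to 5.75 in the 4 controls and 5.37 to 5.48 in the 4 exercise libraries, without overlap. Under antibody it was 5.52 to 5.99 without exercise and 5.58 to 5.91 with it, which overlapped throughout. Trib3, a pseudokinase gene that ATF4 induces, was at 42.37, 25.04, 45.96 and 32.54 FPKM in controls and at 16.97, 18.21, 20.99 and 16.09 with exercise. Under antibody Trib3 was at 56.21, 59.85, 31.35 and 44.36 FPKM without exercise and at 53.95, 33.87, 49.72 and 35.58 with it. It was apart without antibody only, at -0.94 ± 0.22 against -0.13 ± 0.22. Sesn2, a leucine sensor upstream of mTORC1, was at -0.84 ± 0.23 and -0.26 ± 0.23. Among chaperones of the endoplasmic reticulum, Hsp90b1 (GRP94) was at -0.43 ± 0.14 and -0.06 ± 0.14, and Dnajb9 at -0.26 ± 0.16 and -0.33 ± 0.16. The list's average median lay between -0.21 and -0.13 in every alternative fit.

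**Figure D4:**
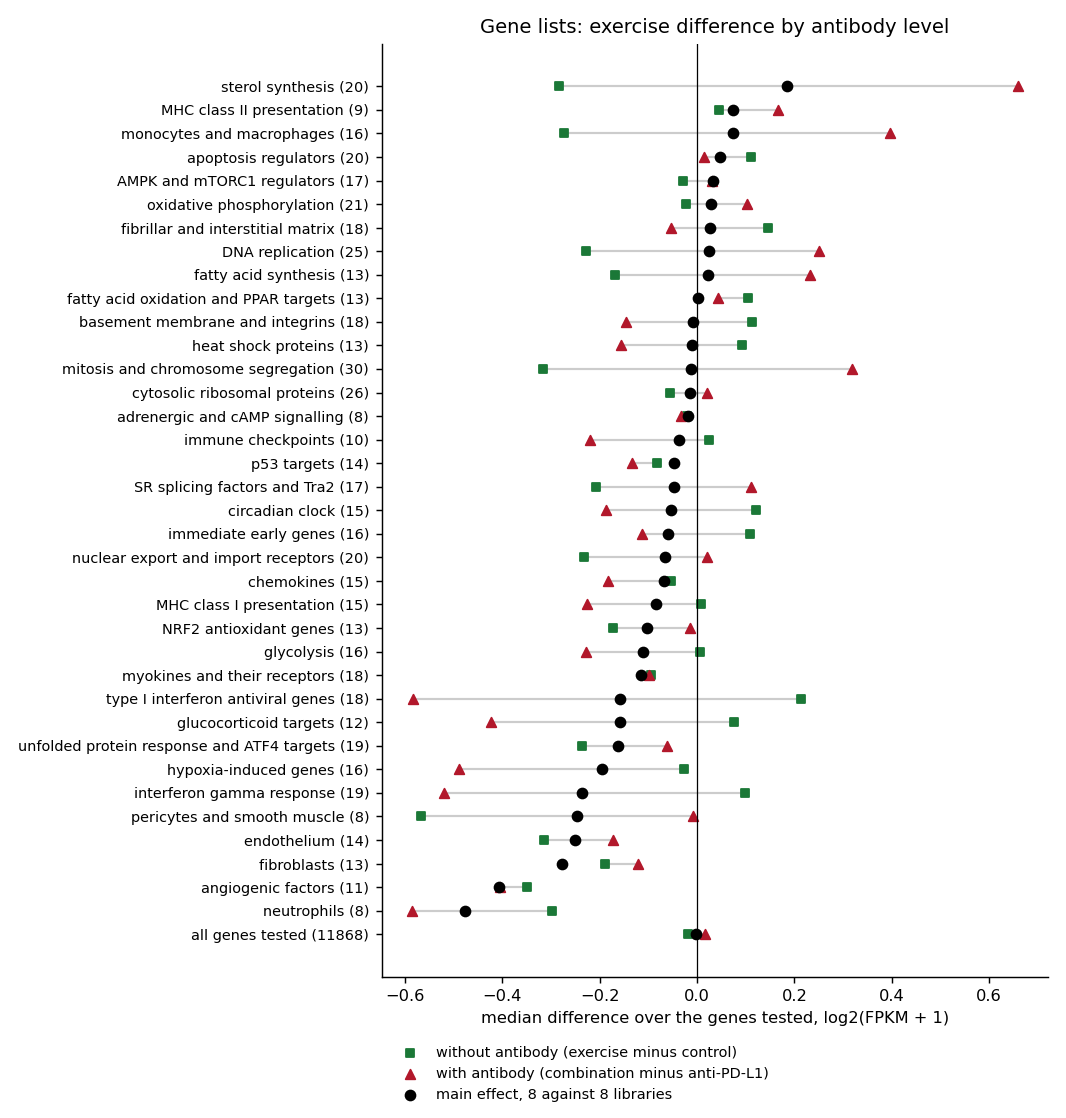
Median exercise difference, in log2(FPKM + 1), over the tested genes of each list, as the average over both antibody levels, without antibody and with antibody. Angiogenic and neutrophil genes lie below 0 at both levels. Mitosis, DNA replication and sterol genes lie below 0 without antibody and above it with antibody, and type I interferon genes the other way round. With controls 1 and 2 left out, the medians without antibody were 0.25 for neutrophil genes and -0.0229 for type I interferon genes.

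Cell division genes averaged to nothing from opposite sides. Of 30 genes of mitosis and chromosome segregation 13 were above 0 (median -0.01). Without antibody 29 were below 0 (median -0.32), 14 of them with an unadjusted p under 0.05, where 9.93% of all genes were. That median was -0.51 without exercise 1, -0.242 without exercise 3 and -0.235 without controls 1 and 2. None of the 30 was apart from the controls. With antibody all 30 were above 0 (median 0.32), 9 with such a p (2.25% over all genes). Of the 30, 13 were apart from anti-PD-L1 and higher, where 166 of all 11868 genes tested were. The gap between the levels was above 0 for all 30, with an unadjusted p under 0.05 for 18, against 7.99% of all genes in that direction and 5.11% in the other. The 25 DNA replication genes had medians of -0.23 and 0.25 at the 2 levels. The first was -0.36 without exercise 1, -0.14 without exercise 3 and -0.052 without controls 1 and 2, and the second 0.12 without anti-PD-L1 4. Tk1, thymidine kinase, was at 0.07 ± 0.21 and 0.50 ± 0.21.

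Mki67, the proliferation marker that coats mitotic chromosomes (chromosome 7, 135689784 to 135716450), was at 64.67, 57.54, 51.89 and 42.84 FPKM in controls and at 63.85, 18.44, 17.35 and 31.05 in exercise 1 to 4. It was at 32.95, 33.32, 25.98 and 28.49 FPKM in anti-PD-L1 and at 42.03, 44.56, 49.29 and 53.55 in the combination. Exercise 2 to 4 lay below every control while exercise 1 lay among them, and the combination lay wholly above anti-PD-L1. The differences were -0.90 ± 0.29 without antibody, 0.63 ± 0.29 with it and -0.13 ± 0.28 on average. Top2a, the topoisomerase that untangles chromosomes, was at -0.49 ± 0.21, 0.33 ± 0.21 and -0.08 ± 0.18. The average of Mki67 was above 0 without exercise 2 (0.0189), without exercise 3 (0.0317) and without controls 1 and 2 (0.0946), and that of Top2a without exercise 3 (0.0137) and without those controls (0.0567).

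Sterol synthesis genes lay above 0 on average in 19 of 20 (median 0.18). An unadjusted p was under 0.05 for 2 (3.85% over all genes higher), Pmvk, a kinase of the mevalonate pathway (0.39 ± 0.15), and Insig1, a brake on it (0.32 ± 0.15). The median was 0.10 without anti-PD-L1 4 and 0.33 without controls 1 and 2. This too joined unlike levels. With antibody all 20 were above 0 (median 0.66), 18 with an unadjusted p under 0.05 (2.25% over all genes). Of the 20, 7 were apart and higher, where 166 of all 11868 genes tested were. Without antibody 18 were below 0 (median -0.28, and -0.50 without exercise 1, -0.18 without exercise 4 and -0.11 without controls 1 and 2). Hmgcs1, which makes HMG-CoA at the head of the pathway (chromosome 13, 119690351 to 119708260), was at 60.76, 74.88, 54.63 and 59.29 FPKM in controls and at 88.96, 32.72, 38.61 and 37.78 in exercise 1 to 4. It was at 41.55, 24.54, 30.72 and 23.12 FPKM in anti-PD-L1 and at 43.03, 57.08, 58.55 and 74.57 in the combination. Exercise 1 was the highest of the 16 libraries, exercise 2 to 4 lay below every control, and the differences were -0.44 ± 0.27 and 0.95 ± 0.27. Srebf2, which encodes the factor that switches the pathway on, was at 0.01 ± 0.12 and 0.34 ± 0.12.

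The start regions of 3 of these genes are shown because nearly all members of their lists shared a sign at each antibody level. They are the 250 bases before a RefSeq transcript start (GRCm38.p6), read 5′ to 3′ on the gene's strand. Hmgcs1 lies at chr13:119690101-119690350 (plus strand), Mki67 at chr7:135716380-135716629 (minus strand) and Top2a at chr11:99024190-99024439 (minus strand). The transcript start used for Mki67 lies inside the gene span given above, so its window overlaps that span. Capitals mark, on either strand, the CCAAT box bound by NF-Y in all 3, the sterol regulatory element TCACNCCAC in Hmgcs1, and the cell cycle element TTTGAA, known as CHR, in Mki67 and Top2a.
Hmgcs1: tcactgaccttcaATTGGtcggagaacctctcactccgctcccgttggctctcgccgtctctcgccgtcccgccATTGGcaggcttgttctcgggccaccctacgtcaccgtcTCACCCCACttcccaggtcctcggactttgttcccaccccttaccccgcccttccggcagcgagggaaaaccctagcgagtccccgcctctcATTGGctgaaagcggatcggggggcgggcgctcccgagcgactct
Mki67: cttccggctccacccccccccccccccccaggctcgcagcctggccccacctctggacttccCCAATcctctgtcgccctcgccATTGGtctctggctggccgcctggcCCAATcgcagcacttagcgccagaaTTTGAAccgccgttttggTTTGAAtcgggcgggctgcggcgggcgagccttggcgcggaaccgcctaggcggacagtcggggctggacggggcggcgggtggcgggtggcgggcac
Top2a: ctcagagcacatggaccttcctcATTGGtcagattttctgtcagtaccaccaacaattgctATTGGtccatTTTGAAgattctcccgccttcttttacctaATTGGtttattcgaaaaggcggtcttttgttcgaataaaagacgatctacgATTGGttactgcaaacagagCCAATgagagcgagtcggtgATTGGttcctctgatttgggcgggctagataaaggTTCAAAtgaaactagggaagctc

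Hmgcs1 held 1 sterol element and 3 CCAAT boxes, Mki67 held 2 CHR and 3 CCAAT, and Top2a held 2 CHR and 6 CCAAT. A window was found for 9337 of the 11868 genes tested, of which 41% held CCAAT, 12.7% CHR and 1.18% the sterol element. CCAAT stood in 14 of the 14 sterol genes with a window and in 22 of 26 mitosis genes (84.6%), and CHR in 10 of those 26 (38.5%). The sterol element in this spelling stood in 1 of the 14, as did CHR (7.14%). Of 8 angiogenic factors with a window 2 held CCAAT (25%), 2 held CHR (25%) and none the sterol element. Over all 32851 windows the shares were 33.8% for CCAAT, 16% for CHR and 1.05% for the sterol element. The matches describe letters and do not show that a factor binds there.

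**Figure D5:**
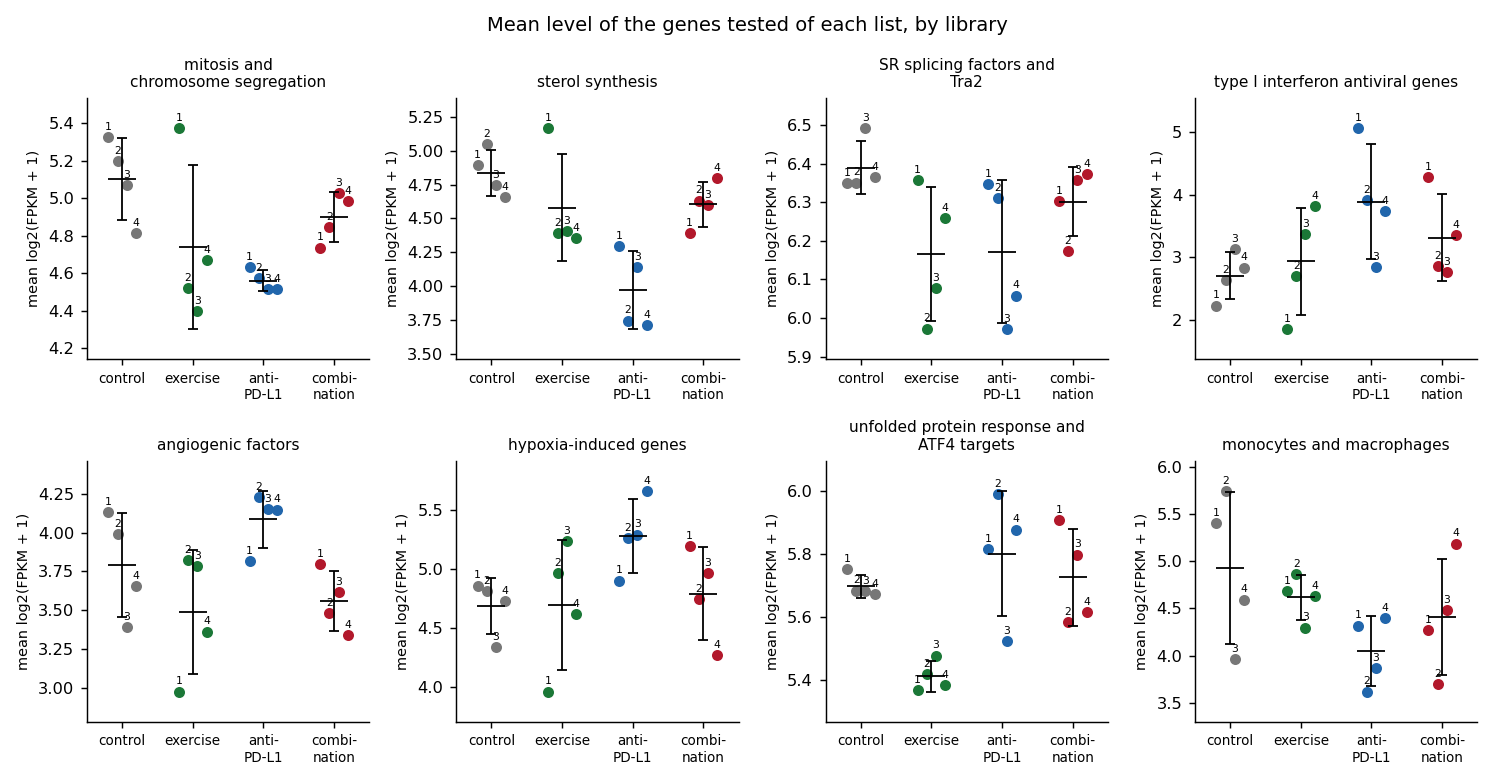
Mean log2(FPKM + 1) over the tested genes of 8 lists in each library, with group mean and SD. Exercise 1 lies above the other exercise libraries for mitosis and sterol genes and below them for angiogenic, hypoxia and type I interferon genes.

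All 18 type I interferon antiviral genes were below 0 on average (median -0.16), from 17 above 0 without antibody (median 0.21) and 18 below 0 with it (median -0.58). None had an unadjusted p under 0.05 in any of the 3 comparisons, and their mean log2 level overlapped between all groups (2.23 to 3.13 in controls, 1.86 to 3.82 in exercise, 2.85 to 5.06 in anti-PD-L1 and 2.76 to 4.28 in the combination). The average median was 0.03 without anti-PD-L1 1, -0.33 without exercise 4 and -0.42 without controls 1 and 2. The median without antibody was -0.000819 without exercise 4, -0.0229 without controls 1 and 2 and 0.64 without exercise 1. The median with antibody was -0.14 without anti-PD-L1 1 and -0.97 without combination 1. Of 19 interferon gamma genes 16 were below 0 (median -0.24, and -0.0939 without combination 3 and -0.37 without exercise 3). Without antibody 12 of the 19 were above 0 (median 0.10, and -0.13 without exercise 3), and with it 2 were (median -0.52, and -0.27 without anti-PD-L1 1). On average an unadjusted p was under 0.05 for Cd274, which encodes PD-L1 itself. Cd274 was at 5.83, 5.17, 3.47 and 4.5 FPKM in controls and at 1.69, 3.27, 6.33 and 5.34 with exercise. It was at 15.52, 10.71, 7.16 and 13.62 FPKM in anti-PD-L1 and at 10.1, 5.86, 4.64 and 6.95 in the combination. The groups overlapped at both levels, and the difference was -0.46 ± 0.21.

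Genes of MHC class I presentation were below 0 on average in 12 of 15 (median -0.08, and -0.14 without anti-PD-L1 4). Without antibody 8 of the 15 were above 0 (median 0.0088, and -0.0708 without control 2). With it 14 were below 0 (median -0.23, and -0.18 without anti-PD-L1 1). On average B2m, the light chain, was at -0.32 ± 0.13 and Nlrc5, the transactivator of the class I genes, at -0.31 ± 0.14. The average of H2-K1, a heavy chain gene that can share reads with its relatives, was -0.27 ± 0.12. Psmb9, an immunoproteasome subunit, was at 52.05, 46, 32.71 and 47.36 FPKM in the combination and at 84.78, 52.83, 53.37 and 61.33 in anti-PD-L1, just apart. Without antibody Psmb9 was at 13.68 to 23.82 FPKM with exercise and 14.05 to 26.55 in controls. Tap1, a subunit of the peptide transporter, was at 0.01 ± 0.20 without antibody and -0.56 ± 0.20 with it.

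Genes of RNA splicing and nuclear transport were lower where no antibody was given. Of 17 SR and Tra2 splicing genes 14 were below 0 without antibody (median -0.21), 8 with an unadjusted p under 0.05 (9.93% over all genes), and all 17 were above 0 with it (median 0.11), none with such a p. Tra2a, a splicing activator, was at 47.59, 46.07, 51.8 and 46.45 FPKM in controls and at 36.22, 26.79, 29.19 and 30.03 with exercise, with no overlap. It was at 44.81, 44.75, 31.56 and 35.93 FPKM in anti-PD-L1 and at 37.81, 37.25, 45.39 and 36.43 in the combination, which overlapped. Its differences were -0.64 ± 0.12, 0.01 ± 0.12 and, on average, -0.32 ± 0.11. Of 20 nuclear export and import receptors 19 were below 0 without antibody (median -0.23), 8 with an unadjusted p under 0.05 against the same 9.93%, and 7 with it (median 0.02). Xpo1, the main exporter of proteins, was at 28.52 to 43.45 FPKM with exercise against 48.66 to 50.61 in controls, and Ipo7, an importin, at 44.71 to 69.57 against 73.19 to 98.05. On average Xpo1 was at -0.29 ± 0.11 and Ipo7 at -0.41 ± 0.14.

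Of 16 hypoxia-induced genes 13 were below 0 (median -0.19, and -0.11 without combination 4 and -0.33 without exercise 3). Their median was -0.03 without antibody, but 0.28 without exercise 1, and -0.49 with antibody, but -0.26 without combination 4. Car9, the carbonic anhydrase that marks hypoxia, was at 24.8, 28.85, 26.5 and 38.12 FPKM in anti-PD-L1 and at 24.53, 12.7, 17.35 and 3.94 in the combination. These did not overlap, by a narrow margin at combination 1, while 5.67 to 28.42 FPKM with exercise spanned the 9.22 to 15.01 of the controls. Of 16 glycolysis genes 14 were below 0 on average (median -0.11, and -0.0214 without combination 4), with Slc16a3, the lactate exporter, at -0.44 ± 0.20. Without antibody 8 of the 16 were below 0 (median 0.00675, and -0.0868 without exercise 3). With antibody 14 were (median -0.23, and -0.0759 without combination 4). Of 21 oxidative phosphorylation genes 12 were above 0 (median 0.03), with an unadjusted p under 0.05 for 3 (3.85% over all genes). Among the 3 were Ndufv1 of complex I at 0.12 ± 0.05 and Cox5b of complex IV at 0.23 ± 0.10. Without antibody 14 of the 21 were below 0 (median -0.02, and 0.0683 without controls 1 and 2). With antibody 20 were above 0 (median 0.10). Elovl5, an elongase of fatty acids, was at -0.20 ± 0.06.

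Gene lists tied to the signals that exercise is known to send had average medians between -0.16 and -0.02. Of 12 glucocorticoid targets 10 were below 0 (median -0.16, and -0.28 without exercise 3 and -0.0868 without anti-PD-L1 4). Without antibody 8 of the 12 were above 0 (median 0.08, and -0.0264 without exercise 3). With antibody all 12 were below 0 (median -0.42, and -0.27 without anti-PD-L1 4). Sgk1, a kinase, was at -0.38 ± 0.14 on average and Fkbp5, a receptor chaperone, at -0.04 ± 0.12 (95% interval -0.28 to 0.21). Of 15 clock genes 9 were below 0 (median -0.05, and 0.0569 without anti-PD-L1 4). Without antibody 9 were above 0 (median 0.12, and -0.0711 without exercise 3). With it 14 were below 0 (median -0.19, and -0.0742 without combination 4). Per1, Dbp and Tef, all above 0 on average, were at 0.16 ± 0.28, 0.02 ± 0.25 and 0.23 ± 0.12. The 8 adrenergic and cAMP genes had a median of -0.02 and the 18 myokines and receptors of -0.12, with Osmr, the oncostatin M receptor, at -0.51 ± 0.19. Il15 was at -0.19 ± 0.19. Hmox1, which breaks down haem and answers oxidative stress, was at -1.26 ± 0.44, with 267.24 and 475.31 FPKM in controls 1 and 2 and 19.85 to 172.61 elsewhere. The stress genes Hspa1a and Fos were at 0.02 ± 0.37 and 0.17 ± 0.38.

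Of a panel of 30 genes across these processes 24 were tested, and Cd8a, Epcam, Ckm, Adipoq, Il6 and Ppargc1a were below the filter. Their 95% intervals reached 0.23 to 1.41 to each side, so the panel's precision ranged widely. With an unadjusted p under 0.05, Krt14 was higher (3.85% over all genes) and Cdkn1a, Cd274, Trib3, Xpo1 and Tra2a were lower (3.29% over all genes). Cdkn1a, the cell cycle inhibitor p21, was at -0.39 ± 0.15. Krt14, a keratin of basal epithelium, was at 20.59, 9.14, 17.47 and 34.53 FPKM in controls and at 34.12, 58.39, 57.61 and 71.92 with exercise. Under antibody it was at 42.06, 30.27, 54.38 and 26.71 FPKM without exercise and at 85.13, 26.11, 29.57 and 54.34 with it. Exercise 1 lay just below control 4, the groups under antibody overlapped widely, and the average was 0.86 ± 0.32. Of the other skin markers Sfn had a median of 13.7 FPKM, while Krt5 and Trp63 were at 0 in 10 libraries each and never above 0.41 and 0.09. The 12 skin markers in the files, Krt14 included, summed to 19.17 to 50.78 FPKM in controls, 49.24 to 87.22 in exercise, 36.61 to 69.78 in anti-PD-L1 and 39.42 to 101.8 in the combination, and their part was not tested.

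Whether the exercise difference depended on the antibody was tested for each gene, and none passed (0 of 11868, limma, lowest adjusted p 0.364, with 948 higher and 606 lower at an unadjusted p under 0.05). The 4 genes of smallest p were Bpgm, which makes 2,3-bisphosphoglycerate, Letm2, Lacc1, an enzyme of inflammatory macrophages, and Cpt1a, which admits fatty acids to mitochondria. Bpgm was at 8.94, 9.97, 10.4 and 8.15 FPKM in controls and at 7.24, 6.96, 5.87 and 5.38 with exercise. Under antibody Bpgm was at 6.57, 5.68, 6.35 and 7.57 FPKM without exercise and at 7.38, 8.33, 8.45 and 7.46 with it. It was lower and apart without antibody and overlapped with it, for a gap of 0.74 ± 0.15. Cpt1a ran the other way, at 0.71 ± 0.18 without antibody and -0.41 ± 0.18 with it. Lacc1 was at -0.41 ± 0.10 and 0.24 ± 0.10, and Letm2 at 0.39 ± 0.10 and -0.32 ± 0.10.

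The count of 0 held for the average difference in all 28 alternative fits, but not for the comparison without antibody. Weighting libraries by their distance from their group called 2274 genes there (19.2%), 918 higher and 1356 lower. The weights were 0.507 for exercise 1, 2.14 for exercise 3 and 2.02 for control 1, which stood apart on the first principal component. Unweighted and without control 1, 0 genes were called and 1326 had an unadjusted p under 0.05 (limma), against 2131 with all libraries. Leaving out exercise 1 called 611 (5.15%), 177 higher and 434 lower. Of these, 607 were also called with weights, all in the same direction. Both fits lessen or remove the part of exercise 1, so this overlap is not independent support. Among the called genes were 19 and 17 of the 30 mitosis genes, 9 and 7 of the 20 nuclear transport receptors and 7 and 5 of the 20 sterol genes, all lower. Xpo1 had an adjusted p of 0.0098 with weights and 0.00889 without exercise 1 (limma), and Mki67 of 0.0103 and 0.00889. Without exercise 1 the test of the gap between antibody levels called 223 genes (1.88%), 195 of them higher, among them 17 mitosis and 12 sterol genes. Exercise 1 had a mean log2 level of 5.37 over the mitosis genes, against 4.40 to 4.67 in the other exercise libraries, and of 5.17 against 4.35 to 4.41 over the sterol genes. It had 2.97 against 3.36 to 3.82 over the angiogenic factors. The part of that library's condition in these counts was not tested.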

How the data were processed

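The 16 libraries of MC38 tumour RNA, 4 in each of 4 groups, were analysed from gene tables in FPKM. The authors deposited these tables, 1 per sample. Per the submitters' processing notes the tools were HISAT and Bowtie2, with no version or role, and the build was GRCm38.p6, and the program that computed FPKM is not given in the sources used here. Low values did not resolve into whole reads (38.6% of 19200 within 0.15 of a whole multiple), so depth is unknown, and FPKM summed to 478672 to 529732 per library. Samples were grouped by their titles.

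A gene entered if 4 or more libraries reached 1 FPKM. Tests were on log2(FPKM + 1) with limma 3.58.1 in R 4.3.3 (robust, trended empirical Bayes) and Benjamini-Hochberg adjustment over all genes tested, threshold 0.05. The average effect used exercise and antibody as terms. The difference at each antibody level and the gap between them came from a model of the 4 groups. The members and the 45 gene lists were chosen with earlier results of these data known, so lists are described by counts and medians with no test. Named were the 12 genes of smallest p in each direction (none passed), the genes apart at both antibody levels, up to 4 members of smallest p of each list described, a panel of 30 genes and the 4 genes of smallest p for the gap. Other list members and Hmgcs1 were named after their values were seen, and some genes that the rule names are not reported here. Promoter sequences are from RefSeq. Alternatives were other normalizations, filters, pseudocounts of 0.1 and 0.01, library weights, a replicate block, other samples in the model, and leaving out each library. Calculations were tested on simulated data. Plots used matplotlib 3.10.9 under Python 3.11.15.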

Additional observations from a re-analysis of the deposited data

Results flagged for a closer look

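Of 476 combinations of a named gene and a group, 17 (3.57%) held a library far from the other 3 by Dixon's gap ratio at its 95% critical value, which by construction chance passes in about 1 of 20 groups. Exercise 1 accounted for 3. In that library Hmgcs1, of sterol synthesis, was at 88.96 FPKM (others 32.72 to 38.61), Ndufv1 at 50.07 (45.65 to 46.35) and Adam8 at 12.16 (18.39 to 19.01).

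In exercise 3, Mmp8 was at 1.28 FPKM (0.19 to 0.24) and Psmb9 at 23.82 (13.68 to 14.99), and in exercise 4 Ccdc9 was at 24.45 (19.35 to 19.93). In control 4, Slc16a3 was at 66.78 FPKM (91.8 to 97.84) and Ndufv1 at 41.41 (45.05 to 45.59). In anti-PD-L1 4, Shank3 was at 8.04 FPKM (11.64 to 12.1) and Hmox1 at 172.61 (97.22 to 99.7). In combination 1, Cldn5 was at 3.14 FPKM (1.69 to 1.79) and Dnajb9 at 17.26 (14.84 to 15.16). In combination 2, Maml3 was at 3.8 FPKM (4.19 to 4.25), Ccl9 at 12.37 (19.37 to 19.45) and Sgk1 at 52.28 (29.26 to 32.09). Tra2a was at 45.39 FPKM in combination 3 (36.43 to 37.81), and Col6a1 at 599.36 in combination 4 (249.77 to 289.98).

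For 3 genes all exercise libraries lay on one side of the controls and all combination libraries on the opposite side of anti-PD-L1. The gap between the exercise differences was -0.191 for Ddx6, a helicase of RNA granules, 0.418 for Shank3, a scaffold protein gene, and -0.716 for Letm2. None of the 3 passed the test of that gap over all genes in limma (lowest adjusted p over all genes 0.364).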

How the results depend on the processing

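The average exercise difference called 0 genes in all 28 alternative fits, with a lowest adjusted p of 0.308 (library weights) to 0.902 (without control 1) and 602 to 1495 genes at an unadjusted p under 0.05. The share of those that were higher, 54%, moved to 63.3% without anti-PD-L1 1 and 43.8% without anti-PD-L1 4. The comparison without antibody called 2274 genes with library weights, and from 0 to 611 with a library left out, 611 being without exercise 1. The gap between antibody levels called 0 to 223, 223 being without exercise 1. The comparison with antibody called 0 in every alternative. Of 3315 pairs of a named gene and a fit, 0 passed and 54, in 17 genes, had the other sign.

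Without controls 1 and 2 together, the average had the other sign for Letm2 (-0.0466), Cpt1a (-0.0174), Ddx6 (-0.0154), Shank3 (0.0633), Acta1 (0.0261), Mki67 (0.0946), Top2a (0.0567), Gzmb (-0.123), Col1a1 (0.144) and Hspa1a (-0.105). With library weights it did for Hba-a2 (0.0117) and Hba-a1 (0.114). With each library left out in turn, the average spanned 0 for Letm2 (-0.0148 to 0.0842), Ddx6 (-0.0165 to 0.0204), Shank3 (-0.0876 to 0.0285), Acta1 (-0.998 to 0.009), Mki67 (-0.249 to 0.0317), Top2a (-0.16 to 0.0137), Gzmb (-0.0119 to 0.352), Adgre1 (-0.106 to 0.22), Hba-a1 (-0.853 to 0.0198), Ldha (-0.168 to 0.00497), Hspa1a (-0.131 to 0.23), Fos (-0.0375 to 0.396), Dbp (-0.0793 to 0.173) and Fkbp5 (-0.0813 to 0.0541). The cause was not tested.

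With the replicate number as a block, all 4 comparisons called 0 genes. The labels do not say whether equal numbers mean a pairing. Deviations of same-numbered libraries correlated at -0.62 to 0.344, over 0.1 in 6 of 24 pairs. Only 1 of 16 libraries matched its own number best, which does not exclude a shared batch. Depth is unknown, so genes of low FPKM cannot be given a counting error.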
